A study of Mus musculus with 8 samples.

Results

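A set of 10 genes that serve prohormone processing and granin storage was followed in the mouse hippocampus: proSAAS (Pcsk1n), the prohormone convertases Pcsk1 and Pcsk2, carboxypeptidase E (Cpe), the granins Chga, Chgb, Scg2, Scg3 and Scg5, and the granin-like precursor Vgf. They were 10 of the 19558 genes in the deposited table. Pcsk1n was selected because it was strongly lower after treatment in these same libraries, so its values are a description with no test. The other 9 were taken for their place in the same pathway and not for their values, although earlier results of these data were known. All 10 passed the filter on low counts, and the lowest count of any of them in any library was 223.

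The study compared 4 libraries from mice given the ATM kinase blocker KU55933 with 4 from mice given vehicle. ATM is a kinase activated by breaks in DNA. Both groups were wild-type (WT) animals of strain C57BL/6 KP at postnatal day 40, dosed through the nostrils under anesthesia. The labels give 7.5 mg/kg for both groups, and the vehicle was 4% DMSO in saline. How long after dosing the tissue was taken is not stated. Every sample is labelled hippocampus, while the library protocol states RNA inputs for hypothalamus and PFC, a disagreement that the labels leave as it is. The stranded poly(A) libraries held 40586998 to 46630341 estimated counts in vehicle and 34190440 to 37499003 in KU55933, so that depth did not overlap between the groups; its part in the results was not tested.

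Neuropeptides and many trophic factors are made as large precursors that are packed into dense-core vesicles and cut there. The convertases PC1/3 (Pcsk1) and PC2 (Pcsk2) cut at pairs of basic residues, and carboxypeptidase E trims the basic residues left behind. Each convertase has a small partner protein: proSAAS inhibits PC1/3, and 7B2 (Scg5) is the chaperone and inhibitor of PC2. Granins are acidic proteins that aggregate in the vesicle and help to load it, and several of them are cut into peptides themselves.

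The labelled tissue carried its markers, while no list of PFC markers was examined. The 13 markers of hippocampal principal neurons, none of them at 0 in any library, summed to 1392 to 1607 CPM, counts scaled to library size, in vehicle and 1194 to 1412 in KU55933. The 6 hypothalamic peptide genes, 4 of them at 0 in at least 1 library, summed to 1.41 to 3.69 CPM and 0.338 to 0.936 CPM. The 6 choroid plexus markers summed to 52.1 to 112 CPM in vehicle, and to 1155, 1232, 74.2 and 58.0 CPM in KU55933 1 to 4, so that 2 treated libraries stood apart. Thalamic and other subcortical markers summed to 65.6 to 80.7 CPM in vehicle and 81.9 to 114 CPM in KU55933, without overlap. GABA neuron markers summed to 482 to 561 and 532 to 687 CPM, astrocyte markers to 1155 to 1318 and 1087 to 1354 CPM, and oligodendrocyte markers to 2780 to 6217 and 3193 to 4403 CPM. Microglial markers summed to 178 to 219 and 169 to 213 CPM, and endothelial markers to 129 to 146 and 111 to 145 CPM. By the test described below, which called 14.6% of all genes lower and 6.92% higher, the genes called lower numbered 4 of 13 principal neuron markers, 1 of 4 GABA neuron, 1 of 4 astrocyte, 1 of 3 endothelial and both tested hypothalamic genes. Those called higher were 1 principal neuron and 2 subcortical markers, and no choroid plexus, oligodendrocyte or microglial marker was called. With the offset for GC content and length described below, 1 hypothalamic gene was called lower and no other marker was called in either direction. That offset called 1.3% of all genes lower and 0.691% higher. The part of these cell types in the changes below was not tested. The dependence of counts on GC content also moved with treatment, without overlap. The slope on transcript GC content was taken from log2 CPM centred on each gene's mean over the 8 libraries, so it is relative to that mean. It was 0.134, 0.193, 0.269 and 0.256 per 10 percentage points in vehicle 1 to 4, and -0.275, -0.344, -0.115 and -0.119 in KU55933 1 to 4. Because of this, an offset that removes each library's trend on transcript GC content and length was also fitted. Levels, ratios and changes below are without it unless the offset is named.

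Cpe was by far the most abundant of the 10 mRNAs and Pcsk1 the least. On the per-length scale (counts divided by transcript length and rescaled to a common total), levels in vehicle were 2721 ± 78.6 for Cpe (SD, n = 4, as for every level here) and 599 ± 55.9 for Chgb. Next came Scg3 at 246 ± 12.5, Scg5 at 218 ± 13.2, Scg2 at 210 ± 14.3 and Pcsk1n at 194 ± 142. Chga followed at 150 ± 7.96, Pcsk2 at 146 ± 7.85, Vgf at 119 ± 30.7 and Pcsk1 at 12.1 ± 2.13. Scg5 and Scg2 did not differ beyond their spread, nor did Chga and Pcsk2, and the spread of Pcsk1n covered the levels from Scg3 down to Vgf. In KU55933 the same scale gave 3079 ± 253 for Cpe, 615 ± 35.1 for Chgb, 272 ± 21.2 for Scg3, 261 ± 22.8 for Scg5 and 260.5 ± 33.4 for Scg2. Pcsk2 stood at 150 ± 13.03, Chga at 106 ± 16.1, Vgf at 49.1 ± 7.03 and Pcsk1 at 18.8 ± 2.96. Pcsk1n was last at 11.7 ± 4.55, below Pcsk1. Together the 10 genes took 0.397% to 0.421% of the counts in vehicle and 0.399% to 0.467% in KU55933, and Cpe alone made up 52.1% to 57.3% of their counts in vehicle and 58.4% to 61.3% in KU55933.

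**Figure D1:**
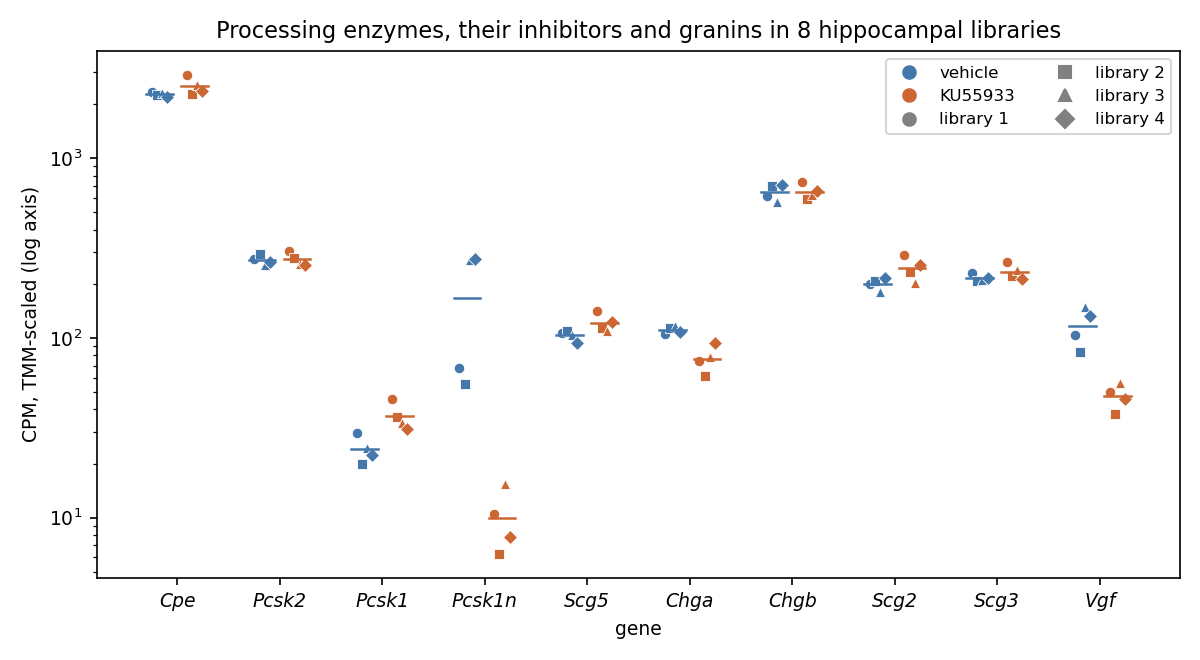
CPM of each gene (log axis) in the 4 vehicle libraries (blue) and the 4 KU55933 libraries (orange), with the library number as the symbol and the group mean as a line. Pcsk1n, Chga and Vgf were lower in every KU55933 library than in every vehicle library, and Pcsk1 and Scg5 were higher. Of all genes tested, 15.9% were lower and 10.7% higher without overlap, and Pcsk1n was selected for its fall. With the offset for transcript GC content and length, the groups overlapped for Chga, Vgf, Pcsk1 and Scg5.

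Of the 9 genes other than Pcsk1n, Vgf and Chga fell, Pcsk1 rose, and 6 did not pass the test (edgeR quasi-likelihood F test, Benjamini-Hochberg adjusted over all 15481 genes tested, threshold 0.05). Over all genes tested, 14.6% were called lower and 6.92% higher. The 10 genes had a median log2 change of 0.06, against 0.01 over all genes tested. With the GC and length offset, none of the 9 was called in either direction, where 1.3% of all genes were called lower and 0.691% higher. At an unadjusted p under 0.05, 1 of these genes passed with the offset, Pcsk1. Its unadjusted edgeR p was 0.00858 and its adjusted p 0.146. Of the 9 genes, 2 were lower in KU55933 without overlap between the groups and 2 higher, where 15.9% and 10.7% of all genes were. In whole hippocampus, fewer cells that make an mRNA and less of that mRNA per cell cannot be told apart.

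The promoter windows printed here belong to genes that include the largest difference (Pcsk1n), a gene that fell (Chga), one that rose (Pcsk1), and a pair that did not pass the test (Scg2 and Chgb). RefSeq (GRCm38.p6) held windows for 8 of the 10 genes; Vgf and Cpe were not among them. Each sequence runs 5′ to 3′ over the 250 bases before the transcription start, and capitals mark the cAMP response element half-site TGACG on either strand; the full palindrome TGACGTCA, which the factor CREB binds, holds one on each strand. The windows are chrX:7919572-7919821 (plus strand), chr13:75089607-75089856 (plus), chr12:102554691-102554940 (plus), chr1:79440027-79440276 (minus) and chr2:132781392-132781641 (plus).
Pcsk1n: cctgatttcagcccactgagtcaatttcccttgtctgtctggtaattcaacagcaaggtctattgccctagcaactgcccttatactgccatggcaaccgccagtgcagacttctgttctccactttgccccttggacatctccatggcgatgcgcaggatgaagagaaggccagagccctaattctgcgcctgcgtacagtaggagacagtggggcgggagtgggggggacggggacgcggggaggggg
Pcsk1: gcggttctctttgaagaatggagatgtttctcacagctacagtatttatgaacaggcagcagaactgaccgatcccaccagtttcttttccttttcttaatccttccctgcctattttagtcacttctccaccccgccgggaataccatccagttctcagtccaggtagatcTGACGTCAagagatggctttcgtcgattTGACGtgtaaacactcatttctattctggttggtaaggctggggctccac
Chga: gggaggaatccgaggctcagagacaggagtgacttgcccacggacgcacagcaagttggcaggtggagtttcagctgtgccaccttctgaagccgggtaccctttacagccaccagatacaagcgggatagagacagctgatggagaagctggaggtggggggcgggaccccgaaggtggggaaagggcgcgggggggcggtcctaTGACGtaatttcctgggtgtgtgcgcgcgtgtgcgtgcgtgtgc
Scg2: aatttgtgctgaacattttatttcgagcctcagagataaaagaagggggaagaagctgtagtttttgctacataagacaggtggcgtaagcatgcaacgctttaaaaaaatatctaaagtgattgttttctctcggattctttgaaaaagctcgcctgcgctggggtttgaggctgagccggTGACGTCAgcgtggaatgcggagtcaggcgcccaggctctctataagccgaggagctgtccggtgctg
Chgb: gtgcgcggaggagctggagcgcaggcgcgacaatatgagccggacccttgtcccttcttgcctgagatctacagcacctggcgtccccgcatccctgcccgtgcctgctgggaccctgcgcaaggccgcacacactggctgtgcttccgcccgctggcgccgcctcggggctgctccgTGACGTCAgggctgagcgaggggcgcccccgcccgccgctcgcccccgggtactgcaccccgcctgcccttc
The full element lay in 3 of the 8 windows, starting 78 bases before the start in Pcsk1, 68 in Scg2 and 72 in Chgb, and in 1.55% of all 32851 RefSeq windows of this length. Of these 3 genes 1 rose and the other two did not pass the test. The half-site lay in 7 of the 8 windows, against 17.8% of all windows. In Chga it started 44 bases before the start. Pcsk1n was the 1 gene of the 8 with no half-site in its window, which says only that these letters are not in this stretch. The GC box GGGCGG, searched on both strands, lay in 5 of the 8 windows and in 32.7% of all.

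Pcsk1n encodes proSAAS, a small granin-like protein that binds and inhibits PC1/3. Its level was 67.8, 55.5, 269.8 and 273 CPM in vehicle 1 to 4, and 10.5, 6.28, 15.4 and 7.81 CPM in KU55933 1 to 4. Vehicle 3 and 4 stood well above vehicle 1 and 2, and the lowest vehicle library was 3.62 times the highest KU55933 library. The means were 167 ± 121 and 9.98 ± 3.98 CPM, 16.7-fold lower in KU55933, with a fitted log2 change of -4.06 ± 0.67 (SE). The SEs given for Pcsk1n are no test, because the gene was selected on this contrast. With the offset for transcript GC content and length the log2 change was -3.64 ± 0.63 and the groups still did not overlap. All counts lay on 1 transcript, ENSMUST00000041096, whose coding sequence of 774 of 2193 bases had a GC content of 72.1%, against 49.2% outside it and 57.3% over the whole transcript. An offset for coding GC content in place of transcript GC content gave -3.31 ± 0.50. Vehicle 3 and 4, the libraries high in Pcsk1n, also had the steepest GC slopes among the vehicle libraries; the part of GC content in the difference beyond these offsets was not tested. Leaving out each library in turn gave log2 changes between -4.35 and -3.71. No fit left out both vehicle 3 and vehicle 4.

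Pcsk1, the convertase PC1/3 that proSAAS inhibits, rose. It stood at 29.5, 19.9, 24.4 and 22.2 CPM in vehicle 1 to 4 and at 45.5, 36.3, 33.5 and 31.0 CPM in KU55933 1 to 4. All 4 treated libraries were above all 4 vehicle libraries, with KU55933 4 close to vehicle 1. The means of 24.0 ± 4.12 and 36.6 ± 6.34 CPM gave a 1.52-fold difference and a log2 change of 0.61 ± 0.14 (edgeR adjusted p = 0.0159). With the transcript GC and length offset it was 0.39 ± 0.12 (adjusted p = 0.146) and the groups overlapped. It was 0.37 ± 0.12 with the coding GC offset (adjusted p = 0.0967). Without KU55933 1 and 2, the libraries high in choroid plexus markers, it was 0.43 (adjusted p = 0.121). Pcsk1 had the lowest transcript GC content of the 10 genes, 40.6%.

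The balance of proSAAS mRNA and PC1/3 mRNA was described as a ratio in each library. Per length, Pcsk1n over Pcsk1 was 5.28, 6.42, 25.4 and 28.2 in vehicle 1 to 4 and 0.528, 0.398, 1.05 and 0.578 in KU55933 1 to 4. The inhibitor mRNA exceeded the convertase mRNA in every vehicle library, while in KU55933 the ratio was below 1 in all libraries but KU55933 3. The means were 16.3 ± 12.2 and 0.640 ± 0.286, given with no test because Pcsk1n was selected on this contrast.

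**Figure D2:**
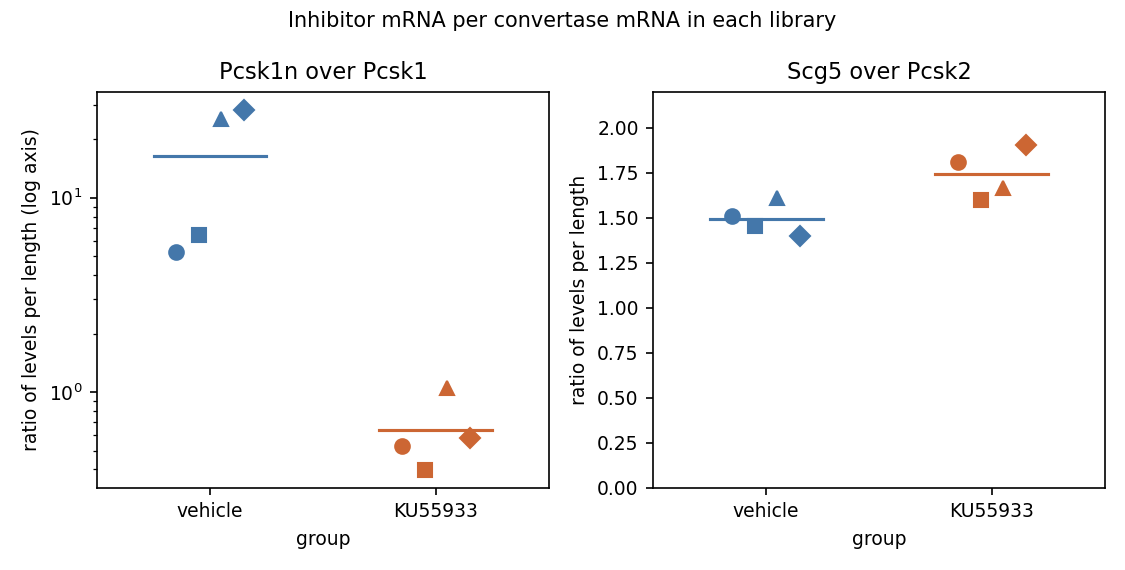
Ratio of levels per length in each library, for Pcsk1n over Pcsk1 (left, log axis) and Scg5 over Pcsk2 (right, linear axis from 0), with group means as lines and the library number as the symbol (circle 1, square 2, triangle 3, diamond 4). Pcsk1n over Pcsk1 averaged 16.3 in vehicle and 0.640 in KU55933, and Scg5 over Pcsk2 averaged 1.49 and 1.74, with vehicle 3 just above KU55933 2.

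The second convertase pair did not pass the test. Pcsk2, the convertase PC2 that makes many of the final neuropeptides, averaged 272 ± 17.3 CPM in vehicle and 273 ± 23.6 CPM after KU55933, with a log2 change of 0.01 ± 0.08 (edgeR adjusted p = 0.952) and -0.14 ± 0.07 with the offset (adjusted p = 0.384). Scg5, which encodes 7B2, was at 106, 109, 104 and 94.0 CPM in vehicle 1 to 4 and 140, 113, 109 and 123 CPM in KU55933 1 to 4. Its groups did not overlap, although KU55933 3 and vehicle 2 nearly met. The log2 change was 0.23 ± 0.09 (edgeR adjusted p = 0.0842) and 0.16 ± 0.08 with the offset (adjusted p = 0.342). Scg5 over Pcsk2 per length averaged 1.49 ± 0.0907 in vehicle and 1.74 ± 0.138 after KU55933 (SD, n = 4). Pcsk2 over Pcsk1 per length was 12.4 ± 2.52 and 8.06 ± 0.665, with every vehicle library above every KU55933 library. This ratio was not taken with the offset, with which the groups overlapped for each of these genes.

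Cpe, the exopeptidase that finishes the peptides cut by both convertases, was at 2325, 2251, 2293 and 2204 CPM in vehicle 1 to 4 and 2915, 2263, 2554 and 2353 CPM in KU55933 1 to 4. The groups overlapped through KU55933 2, and KU55933 1 was the highest library. The log2 change was 0.15 ± 0.08 (edgeR adjusted p = 0.212), and 0.11 ± 0.09 with the offset (adjusted p = 0.558). Cpe over Pcsk2 per length was 18.7 ± 1.26 in vehicle and 20.6 ± 1.76 in KU55933.

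Among the granins, Chga fell while the others did not pass the test. Chga encodes chromogranin A, an acidic core protein of dense-core vesicles, and was at 106, 113, 117 and 108 CPM in vehicle 1 to 4 and 74.2, 61.4, 77.8 and 93.7 CPM in KU55933 1 to 4. All treated libraries were below all vehicle libraries, KU55933 2 being the lowest. The means of 111 ± 5.32 and 76.8 ± 13.3 CPM were 1.44-fold apart, with a log2 change of -0.53 ± 0.11 (edgeR adjusted p = 0.00875). With the transcript GC and length offset it was -0.02 ± 0.07 (adjusted p = 0.929), and with the coding GC offset -0.10 ± 0.07 (adjusted p = 0.479). Its transcript GC content was 58.4%.

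Chgb, the related core protein chromogranin B, averaged 647 ± 65.8 CPM in vehicle and 652 ± 61.1 CPM after KU55933, a log2 change of 0.01 ± 0.09 (edgeR adjusted p = 0.941). With the offset Chgb was at 0.14 ± 0.10 (edgeR adjusted p = 0.517). Its transcript GC content, 53.9%, lay between those of Cpe and Pcsk1n. Scg3, secretogranin III, which binds chromogranin A and the vesicle membrane, was at 216 ± 10.4 and 234 ± 22.9 CPM, a log2 change of 0.12 ± 0.08 (edgeR adjusted p = 0.313). With the offset Scg3 was at -0.01 ± 0.08 (edgeR adjusted p = 0.978). Scg2, the precursor of secretoneurin, was at 200, 206, 180 and 216 CPM in vehicle 1 to 4 and 289, 233, 202 and 254 CPM in KU55933 1 to 4. Its groups overlapped through KU55933 3, and the log2 change was 0.29 ± 0.11 (edgeR adjusted p = 0.0757) and 0.15 ± 0.10 with the offset (adjusted p = 0.497). Of the fits that left out 1 library, Scg2 passed only in that without KU55933 3, at 0.37 (edgeR adjusted p = 0.0319). In the others its adjusted p ran from 0.0951 (without vehicle 1) to 0.196 (without vehicle 3).

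Vgf, a nerve growth factor inducible precursor of several secreted peptides, fell further than Chga. It was at 104, 83.1, 148 and 133 CPM in vehicle 1 to 4 and at 49.8, 37.7, 56.4 and 45.9 CPM in KU55933 1 to 4. Every treated library was below every vehicle library, and vehicle 3 and 4 were the highest, as for Pcsk1n. The means of 117 ± 29.1 and 47.4 ± 7.82 CPM were 2.47-fold apart, with a log2 change of -1.30 ± 0.19 (edgeR adjusted p = 0.00174). Vgf had the highest transcript GC content of the 10, 64.6%. With the transcript GC and length offset its log2 change was -0.02 ± 0.09 (adjusted p = 0.943), and the adjusted levels were 81.9, 66.4, 76.8 and 70.4 CPM in vehicle and 80.7, 67.7, 76.1 and 67.6 CPM in KU55933. With the coding GC offset it was -0.65 ± 0.12 and still called lower (adjusted p = 0.00975); that offset called 3.58% of all genes lower and 3.21% higher, and of the 9 genes it called Vgf alone.

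**Figure D3:**
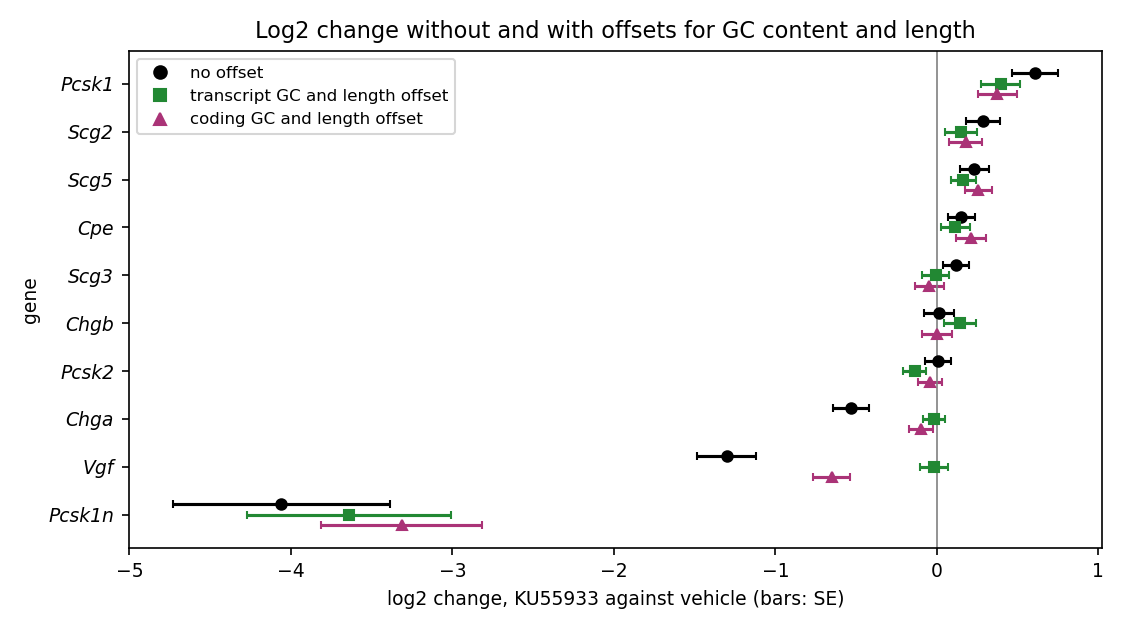
Fitted log2 change of each gene (points; bars are SE) with no offset, with the offset for transcript GC content and length, and with the offset for coding GC content and length. Vgf moved from -1.30 to -0.02 and -0.65, Chga from -0.53 to -0.02 and -0.10, and Pcsk1n from -4.06 to -3.64 and -3.31. Pcsk1n was selected on this contrast, so its bars are no test.

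Single transcripts of the 10 genes were tested in the same way, without the offset, and no transcript fit with it was made. Over all 45343 transcripts tested, 5.7% were called lower and 1.06% higher. Of the 3 Vgf transcripts 2 fell: ENSMUST00000041543, with 74.0% of the gene's counts in vehicle, had a log2 change of -1.34 ± 0.23 (edgeR adjusted p = 0.012), and ENSMUST00000190827 had -1.55 ± 0.31 (adjusted p = 0.0238). The third, ENSMUST00000187382, had -0.51 ± 0.19 (adjusted p = 0.16). The main Chga transcript ENSMUST00000021610 had -0.56 ± 0.12 (edgeR adjusted p = 0.0287), while the main Pcsk1 transcript ENSMUST00000022075 did not pass at this level, with 0.58 (adjusted p = 0.0895). Scg2 counts were divided between ENSMUST00000049972, with 55.9% ± 1.404 in vehicle and 53.6% ± 0.986 in KU55933, and ENSMUST00000185234 with the rest. A minor Scg3 transcript annotated for nonsense-mediated decay, ENSMUST00000215603, held 0, 4, 0 and 4 estimated counts in vehicle and 40, 15, 129 and 23 in KU55933 (edgeR adjusted p = 0.041). Most of these counts lay in KU55933 3, and the transcript made up 0.594% of Scg3 counts in KU55933.

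Other genes of the pathway were counted by list. Of 10 other processing enzymes, 2 fell, 1 rose and 7 did not pass, with a median log2 change of 0.05, where 14.6% of all genes were called lower and 6.92% higher. Furin, the convertase of the constitutive pathway, went from 45.7 ± 3.60 to 27.1 ± 2.21 CPM (SD, n = 4; log2 change -0.75 ± 0.09, edgeR adjusted p = 0.000572). Pcsk4, a convertase known from germ cells, fell from a low level of 1.80 to 0.860 CPM (-1.06 ± 0.25, adjusted p = 0.0134), and the lysosomal protease Ctsl rose from 67.5 to 83.3 CPM (0.30 ± 0.09, adjusted p = 0.0357). With the offset none of the 10 was called. The log2 changes were then -0.21 ± 0.06 for Furin (edgeR adjusted p = 0.145), -0.21 ± 0.23 for Pcsk4 and 0.18 ± 0.08 for Ctsl.

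Of 19 peptide precursors tested, 4 fell, 2 rose and 13 did not pass, with a median of -0.13 (all genes, 14.6% lower and 6.92% higher). Sst, the somatostatin precursor, went from 114 ± 28.3 CPM to 58.3 ± 11.6 CPM (SD, n = 4; log2 change -0.96 ± 0.20, edgeR adjusted p = 0.0101). Its relative Cort, the cortistatin precursor, fell by 1.52 ± 0.20 on the log2 scale (adjusted p = 0.000858), and Npy, neuropeptide Y, fell from 31.1 to 22.05 CPM (-0.50 ± 0.12, adjusted p = 0.0175). Tac1, the substance P precursor, rose from 5.08 to 7.86 CPM (0.63 ± 0.15, adjusted p = 0.018). The remaining calls, named after their values were seen, were Cck, which fell (-0.74 ± 0.18, adjusted p = 0.0185), and Trh, whose groups overlapped. With the offset, which called 1.3% of all genes lower, 2 stayed called, Npy at -0.41 (adjusted p = 0.0476) and Cort at -1.001 (adjusted p = 0.0216), and none was called higher. Sst was then at -0.69 ± 0.16 (edgeR adjusted p = 0.0656), Cck at -0.33 ± 0.14 and Tac1 at 0.50 ± 0.14.

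Of 16 genes of dense-core vesicle formation and release, 2 fell, 3 rose and 11 did not pass, with a median of 0.11, again beside 14.6% of all genes lower and 6.92% higher. Ptprn, a vesicle membrane protein also called IA-2, went from 480 to 337 CPM (-0.51 ± 0.08, edgeR adjusted p = 0.0016), and Hid1 fell by 0.31 ± 0.08 on the log2 scale (adjusted p = 0.0163). Syt4, a synaptotagmin found on dense-core vesicles, rose from 145 to 204 CPM (0.49 ± 0.12, adjusted p = 0.015), as did Ccdc186 (0.28 ± 0.08, adjusted p = 0.0335) and, named after its value was seen, Arfip1 (0.38 ± 0.11, adjusted p = 0.0372). With the offset none of the 16 was called. The log2 changes were then 0.10 ± 0.07 for Ptprn and 0.08 ± 0.06 for Hid1, which turned direction. They were 0.29 ± 0.10 for Syt4, 0.08 ± 0.06 for Ccdc186 and 0.18 ± 0.11 for Arfip1.

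**Figure D4:**
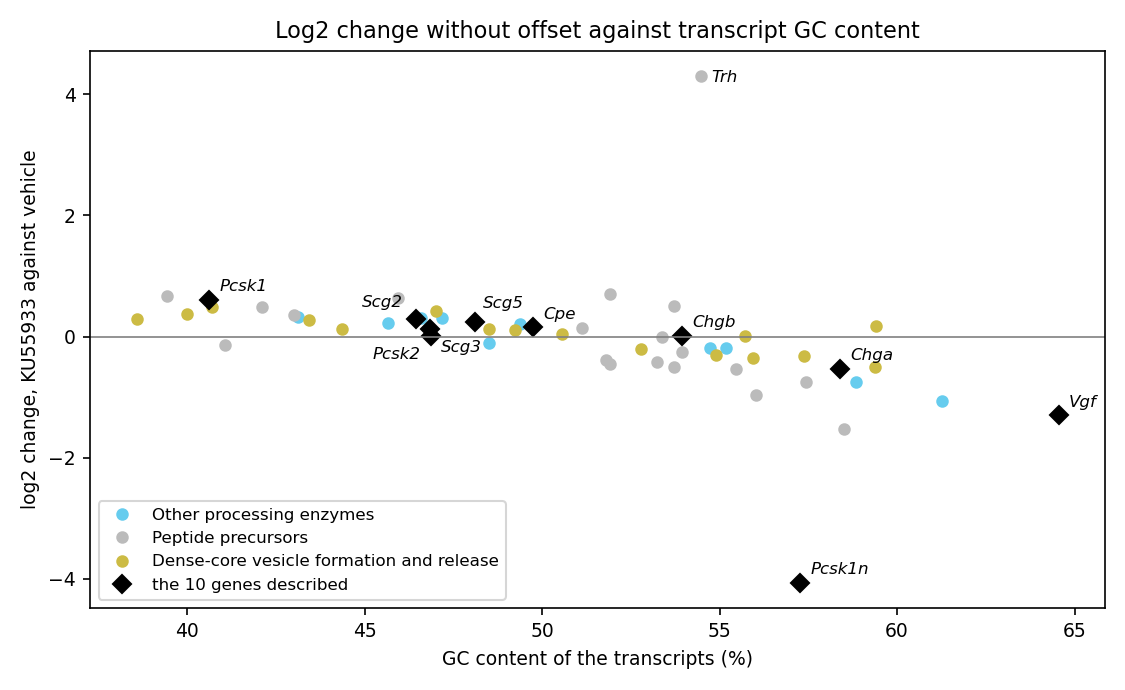
Log2 change without offset (vertical axis) against the GC content of each gene's transcripts in percent (horizontal axis), for the 10 genes (black diamonds) and the tested genes of the 3 pathway lists (coloured circles). Of the 10 genes, the fallen Vgf lies at 64.6% and Chga at 58.4%, and the risen Pcsk1 lies at 40.6%. Pcsk1n at 57.3%, selected for its fall in these libraries, lies far below genes of like transcript GC content such as Chga. In coding GC content Pcsk1n and Chga differ, at 72.1% and 59.3%.

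The genes whose pattern over the 8 libraries was nearest to Pcsk1n, by the root mean square difference of centred log2 CPM, were Prr7 (0.235), C1qtnf4 (0.256), Gm1673 (0.290), H2ac19 (0.630) and Yjefn3 (0.771). None of the 10 pathway genes was among them. Their log2 changes, chosen to be like that of Pcsk1n and so given with no test, were -4.13, -3.94, -4.35, -3.38 and -2.66. Their transcripts were richer in GC than that of Pcsk1n, at 69.0%, 70.7%, 67.7%, 64.2% and 65.6%. Their coding sequences, at 69.4%, 70.7%, 69.5%, 67.4% and 66.3%, were GC-rich like that of Pcsk1n at 72.1%. With the transcript GC and length offset the changes were -1.97, -1.51, -2.48, -2.08 and -1.19, against -3.64 for Pcsk1n. With the coding GC offset they were -3.32, -3.13, -3.59, -2.62 and -1.93, against -3.31 for Pcsk1n.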

How the data were processed

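Hippocampal poly(A) RNA of mice was sequenced in 4 vehicle and 4 KU55933 libraries, grouped as the labels state. The deposited table gives whole-number estimated counts (expected counts from the authors' quantification) for 74764 transcripts. Per the submitters' processing notes the authors used FastQC 0.11.9, Salmon 1.4.0 and DESeq2 1.32.0 with build GRCm39. Their rounding, any filter and the annotation release are not given in the sources used here. Transcripts without a symbol (12) held 0.0381% of counts.

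Counts were summed per gene, filtered with filterByExpr, scaled by TMM and tested two-sided with edgeR 4.0.16 (quasi-likelihood, robust; limma 3.58.1, R 4.3.3), adjusted over 15481 genes. Artificial counts, in which the changed genes were set beforehand, served to try out the test. The outcome is not given here, and no conclusion on the calls made without the offset is drawn from it. GC content and length came from GENCODE mouse release M21 transcripts, which matched 99.7% of transcripts; coding sequence was annotated for 60.1%, and transcript GC content was used for the rest. The offset used splines with 6 degrees of freedom for GC content and 5 for log2 length per library; the coding GC offset was chosen after seeing the data. Alternatives were scaling by RLE or upper quartile, leaving out the filter or asking for 1 CPM in 4 libraries, dispersion without the robust option, a replicate block, DESeq2 1.42.0, limma-voom, left-out libraries and another prior count (0.5 for 2). No libraries were duplicates. Figures were drawn with matplotlib 3.10.9 (pandas 2.3.3, NumPy 2.4.6, Python 3.11.15).

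The genes and lists were chosen with earlier results of these data known. The genes named are the 10, up to 4 called genes of each pathway list with the smallest p, and the 5 nearest to Pcsk1n. P-values weigh the difference between the groups against the spread between the 4 libraries of each group. In the edgeR test each gene's spread was drawn toward a trend over all genes. The SE of a log2 change was its absolute value divided by the square root of the F statistic.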

Additional observations from a re-analysis of the deposited data

How the results depend on the processing

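Pcsk1n was lower under all 20 alternatives without the GC and length offset as the base, between -4.35 and -3.31. None of them left out both vehicle 3 and vehicle 4, the libraries high in Pcsk1n. Vgf and Chga were called lower in every setting that left out 1 library (-1.43 to -1.17 and -0.64 to -0.44) and Pcsk1 higher (0.48 to 0.73). The numbers of the libraries did not pair them: same-numbered libraries correlated at 0.294, 0.084, 0.0393 and 0.202. Of the 9 genes, those called higher numbered 2 with the replicate block and with DESeq2 (Scg2 added, 0.28 with adjusted p = 0.0294 and 0.29 with 0.0389), 0 with the GC and length offset, 1 with offset and replicate block (Pcsk1, 0.39, adjusted p = 0.0131), 0 with the coding GC offset, 0 without KU55933 1 and 2, and 1 to 2 with each library left out. Those called lower numbered 0 with the offset, 0 with offset and replicate block, and 1 with the coding GC offset. All genes called lower numbered 201, 460 and 554 in these 3 settings and 985 without KU55933 1 and 2, and those called higher 107, 361, 497 and 105. Genes called higher also numbered 692 with no filter, 1720 with the replicate block and 1840 with DESeq2. With each library left out, 1446 (without vehicle 3) to 2558 (without vehicle 1) genes were called lower and 151 to 1790 higher, with the same libraries left out. With the offset as the base, leaving out each library gave 52 (without KU55933 2) to 394 (without vehicle 1) lower and 24 (without vehicle 3) to 352 (without vehicle 1) higher, and leaving out KU55933 1 and 2 gave 30 and 4. Pcsk1 was then the 1 gene called higher in 1 setting (0 to 1 of the 9), without vehicle 1 (0.48, adjusted p = 0.0484).

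Small changes turned direction. Pcsk2 was -0.14 with the offset, -0.14 with offset and replicate block, -0.043 with the coding GC offset, -0.087 without KU55933 1 and 2, and -0.048 to 0.048 with each library left out. Scg3 was -0.0064, -0.010 and -0.046 in the first 3 of these, and Chgb was -0.014 without KU55933 1 and 2 and -0.051 to 0.056 with each library left out. With the offset as the base and each library left out, Scg3 ran from -0.068 to 0.038, Chga from -0.056 to 0.028 and Vgf from -0.068 to 0.034, and Chga was 0.010 without KU55933 1 and 2. The cause of these shifts was not tested. The order of levels per length in vehicle kept its ranks with the length of the most abundant transcript.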

Other observations

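The hypothalamic peptide genes Avp, Oxt and Pomc were close to the counting floor. Pomc held 22, 38, 41 and 41 estimated counts in vehicle 1 to 4 and 7, 3, 9 and 7 in KU55933 1 to 4, without overlap (log2 change -2.21 ± 0.37, edgeR adjusted p = 0.00267). The offset for GC content and length gave -1.57 ± 0.33 (edgeR adjusted p = 0.0447). Avp held 44, 20, 9 and 66 counts in vehicle and 10, 6, 5 and 0 in KU55933, where the groups overlapped. Oxt, below the filter, held 36, 10, 4 and 38 counts in vehicle and 5, 1, 2 and 0 in KU55933. Trh, the precursor of thyrotropin-releasing hormone, held 8, 12, 12 and 25 counts in vehicle and 257, 582, 116 and 7 in KU55933 (log2 change 4.30 ± 1.12, edgeR adjusted p = 0.0332). In CPM, KU55933 4 (0.197) lay within the range of the vehicle libraries (0.175 to 0.620). KU55933 1 and 2, the highest in Trh, were also the libraries high in choroid plexus markers, and the part of other tissue in these values was not tested.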
